A study of Mus musculus with 10 samples.

Results

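The nuclear genes for complex I of the mitochondrial respiratory chain were followed in mouse embryonic fibroblasts with a high or a low load of mutant mitochondrial DNA. The genes were chosen by symbol: every protein-coding gene whose symbol starts with Ndufa, Ndufb, Ndufc, Ndufs, Ndufv or Ndufaf, except Ndufa4l2, was taken. This gave 45 of the 26401 genes in the count table, namely 36 subunit genes, 8 assembly factor genes and Ndufa4. They lie on 17 chromosomes, 16 autosomes and X. Polyadenylated RNA was sequenced from 10 populations, 5 of high and 5 of low heteroplasmy, each a biological replicate with a clone number of its own and 1 library. All 10 were immortalized embryonic fibroblasts of label C57Bl/6N with the genotype m.5024C>T, and all grew in high-glucose medium with serum and uridine, with no treatment. The change lies in mt-Ta, the mitochondrial gene for the alanine tRNA, so the low group carries it too and is no wild type. The sources used here do not give the mutant share of each clone, its age or the way it was immortalized, and the counts cannot check the labels, since poly(A) libraries do not show the tRNA change. Because every library is a different clone, the spread between libraries includes the differences between clones.

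Complex I passes electrons from NADH to ubiquinone and pumps protons across the inner mitochondrial membrane. It is L-shaped. Its N module in the matrix arm oxidises NADH, its Q module reduces ubiquinone, and the ND1, ND2, ND4 and ND5 modules of the membrane arm, named after subunits encoded in mitochondrial DNA, pump the protons. Core subunits hold the redox centres and the pumps, accessory subunits surround them, and assembly factors build or modify the modules and then leave. Nuclear and mitochondrial subunits must be joined, and the mitochondrial ones are translated with mitochondrial tRNAs, among them the alanine tRNA. The genes counted here comprise 7 core subunits, which belong to the N and Q modules, and 29 accessory subunits.

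The promoters of complex I genes are known to carry sites for factors that coordinate nuclear genes for respiration, among them NRF1, GABPA of the ETS family, YY1, ERRalpha, CREB and SP1. RefSeq start sites on GRCm38.p6 were found for 40 of the 45 genes. Ndufs1, Ndufa2, Ndufb9 and Ndufaf6 were among those not matched. In the 250 bases before the start, searched on both strands, the NRF1 motif (the capitals at -60 in the Ndufa11 promoter below, a palindrome) stood in 5.0% of the 40 promoters (Ndufa11 and Ndufaf4), against 0.781% of the 27025 promoters of all genes. The CRE motif TGACGTCA stood in 7.5% (Ndufa10, Ndufa11 and Ndufb2), against 1.62% of all promoters. The ETS motif CCGGAAG stood in 12.5% (Ndufaf1, Ndufaf8, Ndufb6, Ndufb7 and Ndufs3), against 7.05%, and the ERR motif AAGGTCA in 7.5% (Ndufb2, Ndufb4 and Ndufs5), against 4.05%. The SP1 motif GGGCGG stood in 47.5%, against 32.9%, and the YY1 motif AAGATGGC in 0 of 40, against 1.59%. The median GC content of the complex I promoters was 58.2%, against 52.0% over all genes, so the GC-rich motifs are set against promoters of lower GC content. These are matches of letters only. The first 3 promoters below belong to the genes with the smallest p-values in the comparison of the groups, and that of Ndufa11 is shown because it holds both the NRF1 and the CRE motif. They are given 5′ to 3′ on the strand of the gene, with the motifs in capitals: the ETS motif at -20 in Ndufb7, and the CRE at -158 and the NRF1 motif at -60 in Ndufa11. The Ndufa9 promoter is chr6:126849145-126849394 (minus strand), that of Ndufaf7 chr17:78936885-78937134 (plus), that of Ndufb7 chr8:83566508-83566757 (plus) and that of Ndufa11 chr17:56717512-56717761 (plus).
Ndufa9: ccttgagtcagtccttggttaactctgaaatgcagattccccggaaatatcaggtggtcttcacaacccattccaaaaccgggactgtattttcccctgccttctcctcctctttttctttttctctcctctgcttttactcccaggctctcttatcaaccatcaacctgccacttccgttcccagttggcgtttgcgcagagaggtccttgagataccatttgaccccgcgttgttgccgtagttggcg
Ndufaf7: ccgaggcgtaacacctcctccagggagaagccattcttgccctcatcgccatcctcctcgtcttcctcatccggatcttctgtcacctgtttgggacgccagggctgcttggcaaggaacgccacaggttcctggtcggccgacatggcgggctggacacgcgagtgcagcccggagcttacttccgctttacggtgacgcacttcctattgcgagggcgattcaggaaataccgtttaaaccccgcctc
Ndufb7: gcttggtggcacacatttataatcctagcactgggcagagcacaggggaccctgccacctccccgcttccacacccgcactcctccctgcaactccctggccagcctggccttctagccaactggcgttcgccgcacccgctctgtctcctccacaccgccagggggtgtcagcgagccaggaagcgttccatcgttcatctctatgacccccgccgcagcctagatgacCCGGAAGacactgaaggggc
Ndufa11: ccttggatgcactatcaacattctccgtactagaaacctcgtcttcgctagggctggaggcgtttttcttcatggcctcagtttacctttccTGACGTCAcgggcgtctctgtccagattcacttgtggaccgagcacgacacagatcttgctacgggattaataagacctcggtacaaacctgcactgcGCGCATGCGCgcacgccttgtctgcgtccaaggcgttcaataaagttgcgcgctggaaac

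The libraries held between 17318372 and 28208576 counts and detected 17408 to 18429 genes. Libraries low 2 and low 3 stood apart in Gm42418, a ribosomal RNA-like transcript, with 40941 and 8017 CPM (counts scaled so that libraries of different depth compare), against 745 to 1616 CPM in the others. Complex I genes took 0.399% to 0.614% of the counts in the high libraries and 0.411% to 0.552% in the low libraries. The fibroblast markers Vim and Col1a1 were abundant, at 7242 ± 3276 and 5638 ± 1473 CPM in the high and 6236 ± 685 and 4781 ± 1061 CPM in the low libraries (SD, n = 5 each), whereas Lum was at 0 in all high libraries and near 0 in the low ones, and Dcn was at most 3.53 CPM. Thy1 was at 56.8 CPM in high 1 and 11.3 CPM in high 2, and between 0 and 3.25 CPM in the other libraries. Col1a2 lay between 1.98 and 614 CPM in the high and 72.9 and 886 CPM in the low libraries. For Col3a1 this was 9.62 to 219 and 13.2 to 165 CPM, for Pdgfrb 4.83 to 128 and 7.11 to 25.2 CPM. Pdgfra was at 0.27 to 50.9 CPM high and 2.12 to 9.29 CPM low, and S100a4 at 3.96 to 14.7 CPM high and 3.39 to 7.52 CPM low. Of the 10 fibroblast markers, 8 were tested and edgeR called 0 (1, Dcn, at an unadjusted p under 0.05, and called by DESeq2 and limma-voom). Their summed level, most of it Vim and Col1a1, was 8424 to 18179 CPM in the high and 10540 to 12205 CPM in the low libraries. Markers of other cells moved with the groups: of 5 adipocyte markers Fabp4 and Plin4 were called higher (summed level 52.8 to 218 CPM high, 5.60 to 16.2 CPM low, with Adipoq, Plin1 and Cebpa at or near 0), and of 5 epithelial markers Krt18 was called higher (summed level 113 to 510 CPM high, 453 to 672 CPM low, most of it Krt19 except in high 1, with Epcam at most 2.11 CPM). The other 3 tested epithelial markers ran the other way, at -1.39 for Krt19, -1.36 for Krt8 and -2.72 for Cdh1 on the log2 scale. Each had an unadjusted p under 0.05, and edgeR called none of them, whereas DESeq2 called all 4 tested epithelial markers and limma-voom called Krt19 alone. Of 4 neural markers Tubb3 was called lower (summed level 39.2 to 182 CPM high, 35.0 to 93.6 CPM low, most of it Map2 except in low 3, with Sox2 at or near 0). Tubb3 and Cdh1 lie on chromosome 8, whose genes as a whole were lower in the high clones, as given below. Endothelial and muscle markers summed to at most 1.37 CPM, and of the 3 blood markers Ptprc was at 0 and Itgam at most 0.16 CPM. The macrophage marker Cd68 was at 11.7 to 89.97 CPM in the high and 12.3 to 26.02 CPM in the low libraries, with high 1 the highest (log2 fold change 1.05, edgeR adjusted p = 0.237, not called by the other tools). The part of these markers in the complex I values was not tested, and in bulk RNA fewer cells of a type and less RNA per cell cannot be told apart.

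All 45 genes were expressed and all passed the filter on low counts. Levels per length, in CPM per kb of transcript over all 10 libraries, ran from 3.99 for the Q module assembly factor Ndufaf4 to 403 for Ndufa4, a subunit of complex IV that was long counted as complex I. The 36 subunits ran from 4.58 (Ndufb2) to 322 (Ndufb7), with a median of 146 CPM per kb. The 8 assembly factors lay lower, from 3.99 to 58.0 (Ndufaf2), with a median of 18.1 CPM per kb. Some subunits that stand side by side in the enzyme differed widely: within the ND5 module Ndufb7, Ndufb9, Ndufb3, Ndufb8 and Ndufb2 had 322, 247, 139, 75.6 and 4.58 CPM per kb, although each is present as a single copy in the complex. In the N module the levels ran from 42.2 (Ndufs4) to 288 (Ndufa7), in the Q module from 80.7 (Ndufa5) to 216 (Ndufs8), in the ND1 module from 195 (Ndufa3) to 276 (Ndufa8), in the ND2 module from 49.8 (Ndufs5) to 224 (Ndufc2) and in the ND4 module from 19.2 (Ndufb4) to 201 (Ndufb10). Transcript length is the median over the gene's annotated protein-coding transcripts, so a gene that uses a shorter or longer form is set too low or too high.

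**Figure D1:**
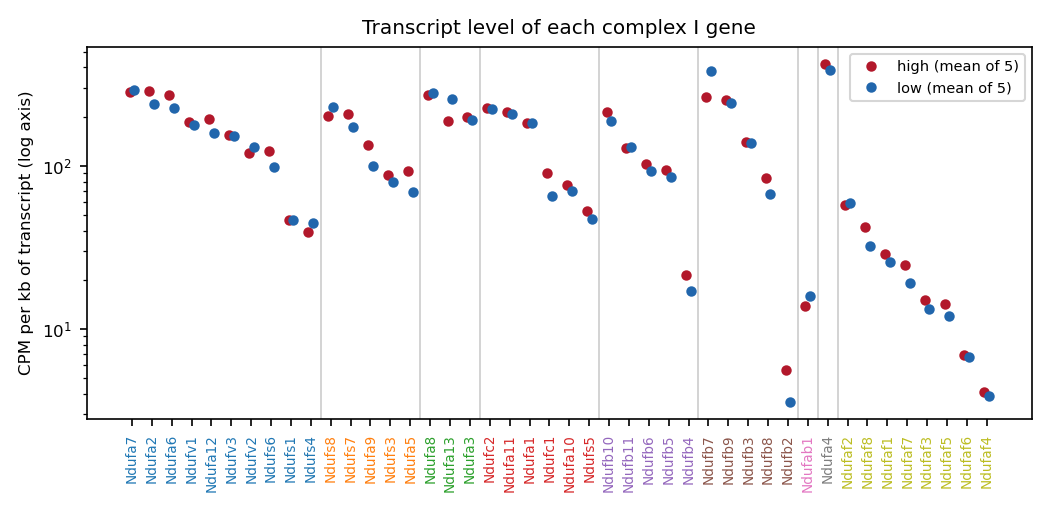
Mean level of 44 complex I genes in CPM per kb of transcript (log axis), in the 5 high (red) and the 5 low (blue) libraries, with the modules separated by grey lines and, from left to right, N, Q, ND1, ND2, ND4, ND5, the acyl carrier, Ndufa4 and the assembly factors. The high and low points of a gene lie close together next to the range between genes, from 3.99 to 403 CPM per kb.

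Setting high against low heteroplasmy asks whether the nuclear genes of the complex differ in mRNA level where more of the mitochondrial genomes are mutant. No complex I gene passed the test. In edgeR's quasi-likelihood test with Benjamini-Hochberg adjustment, 0 of 45 had an adjusted p under 0.05, against 4.86% of the 12964 genes tested (258 or 1.99% higher and 372 or 2.87% lower), and the smallest adjusted p was 0.135. DESeq2 called 0 of 45, against 11.4% of all genes, and limma-voom 0 of 45, against 5.3%. At an unadjusted p under 0.05 edgeR had 3 of 45, with Ndufa9 and Ndufaf7 above 0 and Ndufb7 below 0, against 21.6% of all genes (10.6% higher and 11.0% lower), and DESeq2 and limma-voom also had 3 each, against 23.4% and 21.6% of all genes. In 0 of the 45 did the 5 high values lie entirely above or below the 5 low values, against 7.17% of all genes. The log2 fold change, high over low, was above 0 for 33 of 45 genes, against 52.3% of all genes, with a median of 0.12 over the complex I genes and 0.02 over all genes tested. With a block by the number in the sample code the median of the 45 was -0.05. The number 9 stood only on high 3 and high 4, so in that fit they added nothing to the comparison of the groups. Leaving out 1 library gave a median between 0.05 (without high 1 or without high 3) and 0.21 (without high 5). Without low 2 the median was 0.06, as it was without low 2 and low 3 together. In that last fit edgeR called 0 of 45, against 0.414% of all genes. In the first edgeR fit, with all libraries and no block, the log2 fold change lay between -0.54 (Ndufb7) and 0.66 (Ndufb2). There 43 of 45 were under 0.5 in size. The 95% intervals lay within 1 log2 unit (2-fold) of 0 for 42 of 45 genes, all but Ndufb2, Ndufc1 and Ndufa13, so larger differences are outside the interval for most of them, while differences of the size seen here are not resolved with 5 clones a group.

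**Figure D2:**
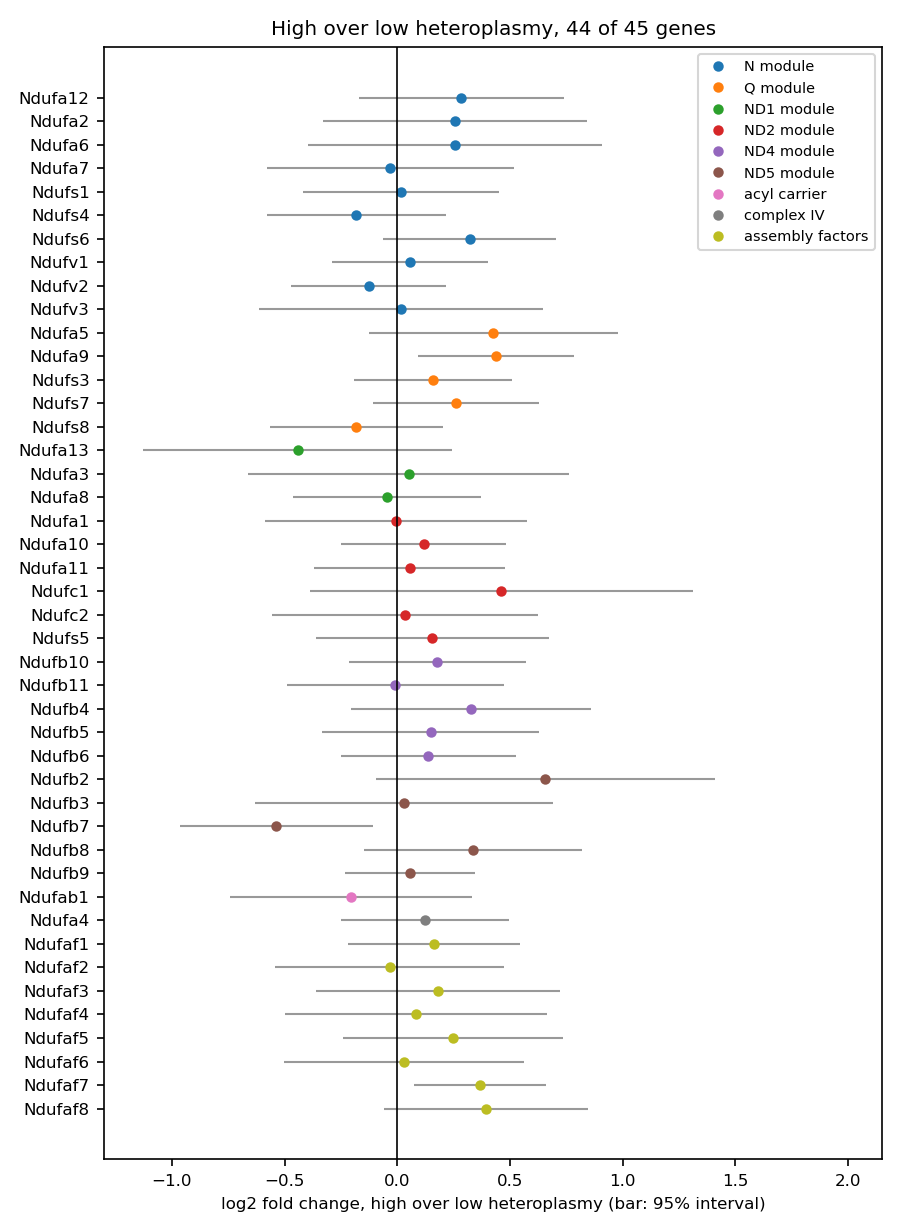
Log2 fold change, high over low heteroplasmy, of 44 of the 45 genes (points, coloured by module) with its 95% interval (bars) from the edgeR fit. The intervals of Ndufa9, Ndufaf7 and Ndufb7 exclude 0, but the smallest adjusted p was 0.135.

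The Q module held the gene with the smallest p. Ndufa9, an accessory subunit that stabilises the joint of the matrix and membrane arms (ENSMUSG00000000399, chromosome 6, 126821721 to 126849136), had 233, 184, 179.7, 153 and 152 CPM in high 1 to high 5, against 136, 104, 130.4, 139 and 157 CPM in low 1 to low 5. Only low 5 reached into the range of the high clones, above high 4 and high 5. High over low, this was 0.44 on the log2 scale (SE 0.16, adjusted p = 0.135, DESeq2 adjusted p = 0.0669). Ndufa5, another accessory subunit, had 89.6, 46.0, 58.8, 48.6 and 32.2 CPM in high 1 to high 5, against 48.02, 29.8, 36.7, 40.7 and 49.5 CPM in low 1 to low 5. High 1 stood above all others, and high 2, high 4 and high 5 lay among the low clones (0.43, SE 0.25, adjusted p = 0.361). The fold change was 0.18 without high 1, 0.56 without high 5 and 0.27 without low 2 and low 3. The core subunit Ndufs7, which carries the last iron-sulphur cluster before ubiquinone, had 191, 115, 225, 205 and 163 CPM in high 1 to high 5, against 159, 151, 149, 146 and 145 CPM in low 1 to low 5. The low clones were nearly equal and the high clones fell on both sides of them (0.26, SE 0.17, adjusted p = 0.410). With 1 library left out, the fold change of Ndufs7 lay between 0.17 (without high 3) and 0.39 (without high 2). Ndufs3, a core subunit that stands at the start of assembly, lay between 70.9 and 108.97 CPM in the high and between 65.5 and 98.3 CPM in the low clones (log2 fold change 0.16). Ndufs8, a core subunit with iron-sulphur clusters, lay between 160.5 and 250.1 CPM in the high and between 172 and 277 CPM in the low clones (-0.18). In both, the ranges of the groups overlapped over most of their width.

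In the N module the core subunits that bind NADH and pass on its electrons had fold changes near 0: 0.06 for Ndufv1, 0.02 for Ndufs1 and -0.13 for Ndufv2 on the log2 scale. Ndufv1, which binds NADH and FMN and takes up the electrons, lay between 232 and 323 CPM in the high and between 209 and 327 CPM in the low clones. Its iron-sulphur partner Ndufv2 lay between 126 and 178 CPM in the high and between 135 and 196 CPM in the low clones. Ndufs1 had 104, 142, 134, 121 and 114 CPM in high 1 to high 5, against 108.98, 120.3, 92.1, 97.6 and 189 CPM in low 1 to low 5, with low 5 the highest of all. Ndufs6, a zinc-binding accessory subunit, had 74.4, 50.0, 94.4, 72.3 and 58.3 CPM in high 1 to high 5, against 64.8, 59.4, 51.9, 49.5 and 54.2 CPM in low 1 to low 5. High 3 was the highest, and high 2 and high 5 lay among the low clones (0.32, SE 0.17, adjusted p = 0.318). Leaving out 1 library put the fold change of Ndufs6 between 0.19 (without high 3) and 0.42 (without high 2). Ndufa12, next to Ndufs6 in the enzyme, had 200.1, 94.2, 175, 207 and 131 CPM in high 1 to high 5, against 131, 112, 129, 135 and 157 CPM in low 1 to low 5. Its high values enclosed the low ones (0.28, SE 0.21, adjusted p = 0.472, between 0.18 without high 4 and 0.43 without high 2). A processed pseudogene that is 99.5% identical over 402 bases had 5.95% as many counts as Ndufa12, so some reads of the gene may be shared. The accessory subunits Ndufa2, Ndufa6, Ndufa7, Ndufs4 and Ndufv3 had log2 fold changes of 0.26, 0.26, -0.03, -0.18 and 0.02. Ndufs4, whose loss is a mouse model of Leigh syndrome, had 64.1, 45.7, 86.0, 77.1 and 62.8 CPM in high 1 to high 5, against 69.2, 72.5, 71.2, 69.9 and 97.7 CPM in low 1 to low 5. In Ndufs4 it was low 5 that stood above the other low clones. Ndufa6, a LYR protein that holds the acyl carrier to the matrix arm, lay between 56.3 and 176 CPM in the high and between 66.2 and 125 CPM in the low clones. Ndufv3 lay between 61.4 and 165 CPM in the high and between 70.03 and 148 CPM in the low clones, with high 1 and low 1 the highest. Ndufa7 lay between 79.7 and 243 CPM in the high and between 130.4 and 191 CPM in the low clones, and Ndufa2 between 103 and 230.3 CPM in the high and between 91.9 and 177 CPM in the low clones. In all 4 genes high 1 and low 1 were above the median of their group, and low 2 or high 5 was the lowest library.

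Along the membrane arm the lowest fold change was that of Ndufb7, an accessory subunit of the ND5 module with a twin CX9C fold on the intermembrane side (ENSMUSG00000033938, chromosome 8, 83566671 to 83571626). It had 216, 131, 185, 187 and 100.93 CPM in high 1 to high 5, against 266, 213, 232, 228 and 249 CPM in low 1 to low 5. Of the high clones only high 1 reached the range of the low ones, just above low 2. High over low, this was -0.54 on the log2 scale (SE 0.20, adjusted p = 0.137). With the block by code number it was -0.80 (edgeR adjusted p = 0.0504). Ndufa13, also known as GRIM-19 and part of the ND1 module (chromosome 8, 69894180 to 69902558), had 379, 186, 301, 226 and 88.2 CPM in high 1 to high 5, against 429, 296, 296, 291 and 292 CPM in low 1 to low 5. It varied most of all 45, 4.86-fold between low 1 and high 5, while 4 low clones were nearly equal (-0.44, SE 0.31, adjusted p = 0.455). The value was -0.24 without high 5, -0.68 without high 1 and -0.89 with the block by code number (adjusted p = 0.106). Both genes lie on chromosome 8, whose genes as a whole were lower in the high clones, as given below. In each of the 10 fits that left out 1 library, 0 of 45 genes were called, against 1.76% to 6.25% of all genes.

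**Figure D3:**
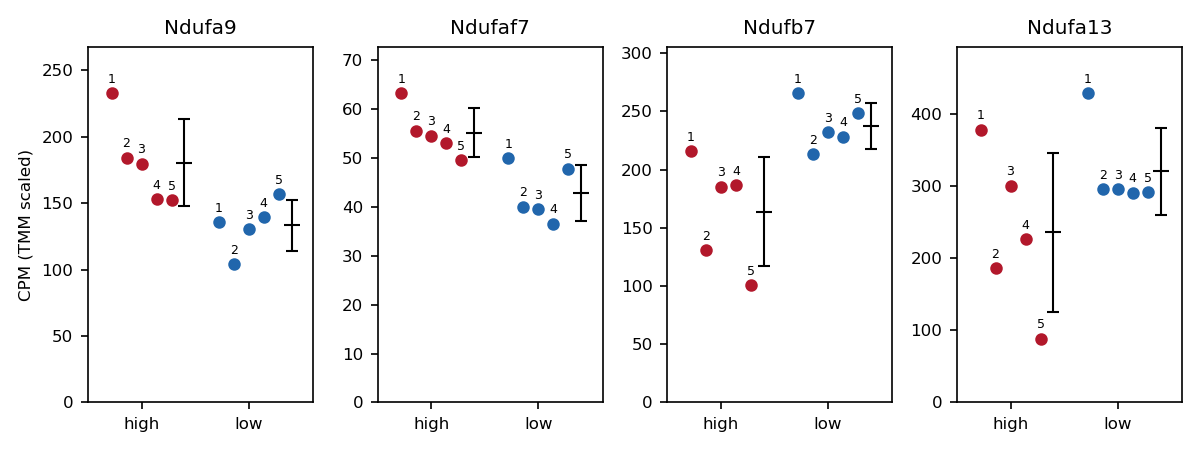
CPM of Ndufa9, Ndufaf7, Ndufb7 and Ndufa13 in the 5 high (red) and 5 low (blue) libraries, numbered by replicate, with the mean and SD of each group beside the points and all axes from 0. In each gene the groups overlap, by low 5 in Ndufa9 and by high 1 in Ndufb7, and Ndufa13 ranges from 88.2 CPM in high 5 to 429 CPM in low 1.

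Of the other membrane arm genes Ndufb2, an accessory subunit of the ND5 module with few counts (77 in the lowest library), had 17.3, 8.43, 19.8, 11.4 and 10.7 CPM in high 1 to high 5, against 13.1, 10.5, 9.24, 5.82 and 4.19 CPM in low 1 to low 5. Low 1 lay above high 2, high 4 and high 5, and the log2 fold change was the highest of the 45 (0.66, SE 0.34, adjusted p = 0.298). Braf shares 146 exon bases with Ndufb2 from the opposite strand and had 2.26 times as many counts. Whether strand was used in counting is not stated, so reads of both genes cannot be told apart there. Ndufb8, an accessory subunit much used as a protein marker of the assembled complex, had 97.9, 127, 194, 90.2 and 85.0 CPM in high 1 to high 5, against 95.3, 83.01, 100.2, 85.9 and 107 CPM in low 1 to low 5. High 2 and high 3 stood above all low clones, and the other 3 high clones among them (0.33, SE 0.22, adjusted p = 0.420). Leaving out 1 library put the fold change of Ndufb8 between 0.09 (without high 3) and 0.43 (without high 5). Ndufb9 was the steadiest gene, with a ratio of 1.40 between its highest and lowest library and a fold change of 0.06, and Ndufb3 was at 0.03. In the ND4 module Ndufb4, Ndufb5, Ndufb6, Ndufb10 and Ndufb11 had log2 fold changes of 0.33, 0.15, 0.14, 0.18 and -0.01. In the ND2 module Ndufa1, Ndufa10, Ndufa11, Ndufc1, Ndufc2 and Ndufs5 were at -0.01, 0.12, 0.06, 0.46, 0.03 and 0.16, and in the ND1 module Ndufa3 and Ndufa8 at 0.05 and -0.05. Ndufa8, a twin CX9C protein of the intermembrane side, lay between 169.9 and 271 CPM in the high and between 161 and 299.8 CPM in the low clones. Ndufs5, another protein of this fold, lay between 20.2 and 45.9 CPM in the high and between 22.1 and 31.8 CPM in the low clones. Ndufb10, which also has it, lay between 110.3 and 195 CPM in the high and between 119.7 and 158 CPM in the low clones. Ndufa10, which resembles nucleoside kinases, lay between 119 and 192 CPM in the high and between 121 and 185 CPM in the low clones, and Ndufa11, a membrane subunit at the contact with complex III in supercomplexes, between 82.97 and 154 CPM in the high and between 88.4 and 133 CPM in the low clones. The ranges of the high and low clones overlapped in each of these genes. Among the small ND4 module subunits Ndufb4 lay between 15.1 and 31.6 CPM in the high and between 13.8 and 22.6 CPM in the low clones. Ndufb5 lay between 40.4 and 83.6 CPM in the high and between 43.2 and 57.3 CPM in the low clones. For Ndufb6 the values were between 42.9 and 70.4 CPM in the high and between 39.1 and 62.1 CPM in the low clones, and for the X-linked Ndufb11 between 83.9 and 151 CPM in the high and between 96.1 and 166 CPM in the low clones. In these 4 genes too the groups overlapped. Ndufc1, a small membrane subunit, rested on 2 clones: it had 144 and 93.0 CPM in high 1 and high 3, against 36.7, 42.2 and 37.1 CPM in the other high clones and 44.2 to 74.9 CPM in the low ones, and its SE was the largest of all at 0.39. The acyl carrier Ndufab1, which also serves the fatty acid synthesis of mitochondria, was at -0.21, and Ndufa4 of complex IV, at 230.4, 187, 230.2, 192 and 126 CPM in high 1 to high 5, against 187, 158, 189, 158 and 195 CPM in low 1 to low 5, at 0.12 (SE 0.17, adjusted p = 0.747, between 0.05 without high 3 and 0.24 without high 5).

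Among the assembly factors 7 of 8 had a log2 fold change above 0, with a median of 0.17, and 0 of 8 passed the test. Ndufaf7, a methyltransferase needed early in assembly (ENSMUSG00000024082, chromosome 17, 78937136 to 78948052), had 63.3, 55.6, 54.6, 53.1 and 49.6 CPM in high 1 to high 5, against 50.0, 40.0, 39.6, 36.6 and 47.8 CPM in low 1 to low 5. All high clones but high 5 lay above all low clones, and high 5 lay between low 5 and low 1. On the log2 scale the difference was 0.37 (SE 0.13, adjusted p = 0.135, DESeq2 adjusted p = 0.0572). Ndufaf8, the partner of the Ndufs7 hydroxylase Ndufaf5, had 25.4, 20.03, 25.6, 29.1 and 27.7 CPM in high 1 to high 5, against 24.7, 20.2, 20.97, 20.2 and 11.3 CPM in low 1 to low 5. High 2 lay at the level of the low clones and low 5 below all others (0.39, SE 0.21, adjusted p = 0.300). With 1 library left out, the fold change of Ndufaf8 lay between 0.25 (without low 5) and 0.49 (without low 1). Ndufaf5 itself was at 0.25, the Q module factors Ndufaf3 and Ndufaf4 at 0.18 and 0.08, the membrane arm factor Ndufaf1 at 0.16, the early factor Ndufaf6 at 0.03 and Ndufaf2, a paralogue of Ndufa12 that holds its place during assembly, at -0.03. Ndufaf2 lay between 26.5 and 53.5 CPM in the high and between 30.2 and 54.3 CPM in the low clones, with high 4 and low 5 far above the rest. Log2 of Ndufa12 over Ndufaf2 was 2.86, 1.83, 2.32, 1.95 and 1.94 in high 1 to high 5, against 1.95, 1.83, 2.04, 2.16 and 1.54 in low 1 to low 5, so the 2 groups overlapped. Ndufaf1, which works with Ecsit and Acad9 on the membrane arm, lay between 31.2 and 51.5 CPM in the high and between 30.3 and 44.5 CPM in the low clones. The scarce Ndufaf5 lay between 11.3 and 22.9 CPM in the high and between 11.0 and 16.2 CPM in the low clones, and the scarcer Ndufaf6 between 5.52 and 9.78 CPM in the high and between 5.81 and 8.63 CPM in the low clones. Ndufaf3 and Ndufaf4 act as a pair, but their ratio differed between clones: log2 of Ndufaf3 over Ndufaf4 was 1.70, 0.05, 1.70, -0.23 and -0.36 in high 1 to high 5, against 1.30, 0.70, 0.48, -0.01 and 0.13 in low 1 to low 5. Ndufaf3 shares 48 exon bases with Impdh2 on the other strand, and Impdh2 had 6.21 times as many counts.

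Over all 45 genes, and without regard to transcript length, differences between clones of 1 group were larger than the difference between the groups. As a measure of a module in a library, each gene's log2 CPM was set against its median over the 10 libraries and the median was taken over the module. Over all 45 genes this deviation was 0.37, -0.21, 0.24, 0.08 and -0.30 in high 1 to high 5, against 0.14, -0.22, -0.01, -0.08 and 0.01 in low 1 to low 5. High 1 was the highest library for 17 of the 45 genes and high 5 the lowest for 17. The means differed by 0.06 log2 units, high minus low, smaller than the SDs among clones (0.29 in the high group, 0.13 in the low group). The same difference was 0.04 in the N module, 0.10 in the Q module, -0.26 in the ND1 module, 0.06 in the ND2 module, 0.13 in the ND4 module and -0.03 in the ND5 module, each within the larger of its group SDs. Without low 2 and low 3 the difference over all 45 genes was 0.02, that of the ND1 module -0.40 and that of the ND2 module -0.04. For the assembly factors it was 0.19, with 0.03, -0.01, 0.15, 0.34 and 0.03 in high 1 to high 5, against 0.03, -0.29, -0.07, -0.06 and 0.00 in low 1 to low 5, which is above both SDs (0.15 high, 0.13 low) while the clones overlap. Without low 2 and low 3 it was 0.06, below both SDs. The 7 core subunits varied little, between -0.07 in high 5 and 0.20 in high 3 among the high and between -0.10 in low 2 and 0.21 in low 5 among the low clones.

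**Figure D4:**
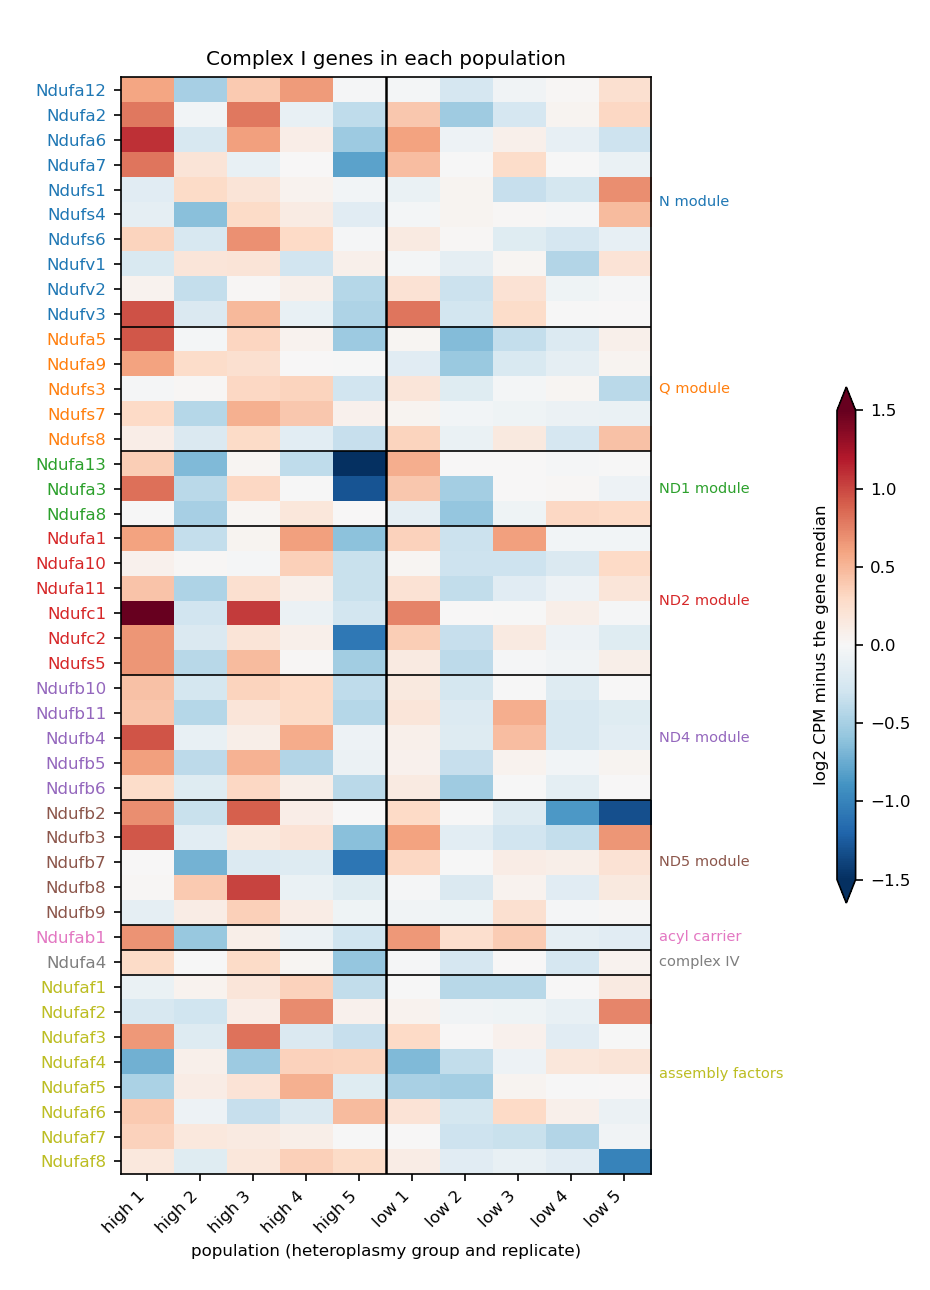
Each row is 1 of 44 complex I genes, grouped by module, and each column a library, high 1 to 5 left of low 1 to 5. Colour gives log2 CPM minus the gene's median over the 10 libraries, red above and blue below. High 1 is mostly red (median deviation 0.37) and high 5 mostly blue (-0.30), while the columns of the low clones are paler.

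High 1 was also the highest and high 5 the lowest library for the subunits of complexes IV and V, while for complex III these were high 3 and high 2 and for complex II high 3 and high 1. The subunits of complex V had deviations of 0.24, -0.34, 0.19, 0.04 and -0.38 in high 1 to high 5, against 0.03, -0.25, 0.01, -0.11 and 0.13 in low 1 to low 5, and those of complex IV 0.45, -0.55, 0.11, 0.02 and -0.67 in high 1 to high 5, against 0.39, -0.06, 0.15, -0.12 and 0.09 in low 1 to low 5. Most complex I transcripts are short, and 21 of the 45 are under 0.8 kb. These 21 had deviations of 0.61, -0.23, 0.31, 0.08 and -0.47 in high 1 to high 5, against 0.21, -0.26, -0.01, -0.08 and 0.01 in low 1 to low 5. All 502 tested protein-coding genes of that length had 0.28, -0.32, 0.11, 0.05 and -0.44 in high 1 to high 5, against 0.20, -0.11, 0.07, -0.06 and 0.06 in low 1 to low 5, in which the complex I genes are included. The 8 complex I genes of 1.5 to 3 kb ran only from -0.05 to 0.16 in the high and from -0.24 to 0.21 in the low clones. With the median of all tested genes of the same length class subtracted, a step added after the data were seen, the deviation over all 45 genes was 0.22, 0.04, 0.18, 0.04 and -0.02 in high 1 to high 5, against -0.01, -0.15, -0.06, -0.05 and -0.01 in low 1 to low 5. The SD then was 0.10 in place of 0.29 among the high clones and 0.06 in place of 0.13 among the low clones. The difference between the groups was 0.15, above both SDs, with high 5 still among the low clones. The part of transcript length in the values of single genes was not tested further.

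**Figure D5:**
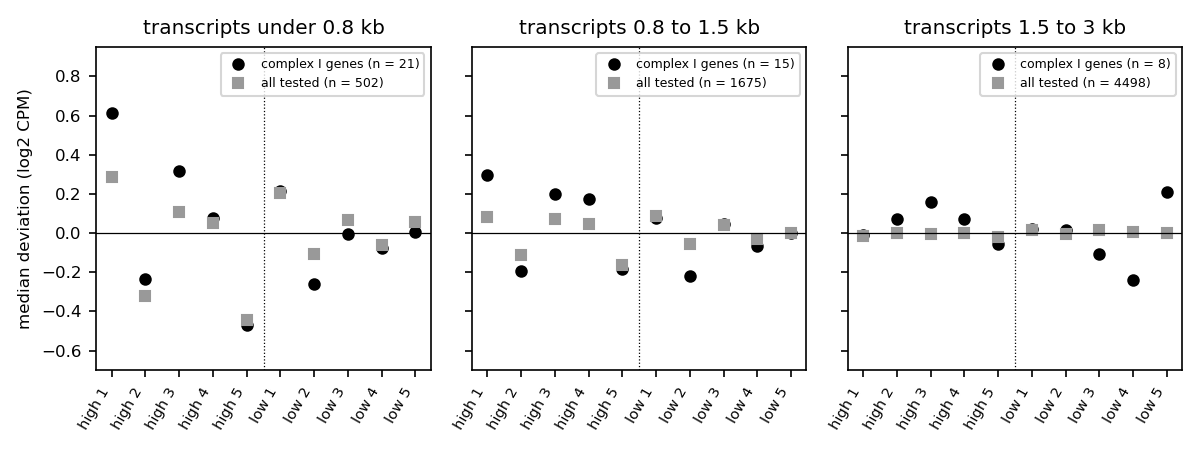
Median deviation (log2 CPM minus the gene's median over the libraries) of complex I genes (black) and of all tested protein-coding genes (grey) in each library, for 3 classes of transcript length. Among transcripts under 0.8 kb both sets are high in high 1 (0.61 and 0.28) and low in high 5 (-0.47 and -0.44), and among transcripts of 1.5 to 3 kb the grey points lie at 0.

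Whole chromosomes also moved with the groups or with single clones, and the complex I genes were read against them. Chromosome 8 held 193 of the 630 called genes, all lower in the high clones, with a median log2 fold change of -0.59 over its 700 tested genes. Its deviation was -0.34, -0.18, -0.37, -0.15 and -0.50 in high 1 to high 5, against 0.28, 0.42, 0.26, 0.19 and 0.17 in low 1 to low 5. Tested genes within 1 Mb of a member were taken where their mean log2 CPM was above 3. The 23 around Ndufb7 had a median log2 fold change of -0.56, and the 44 around Ndufa13 had one of -0.61. With an offset per chromosome and library in the fit, Ndufb7 was at 0.02 (SE 0.19) and Ndufa13 at 0.12 (SE 0.31). Chromosome 6 had a median of 0.34, and its members Ndufa9, Ndufb2, Ndufa5 and Ndufa4 were at 0.13, 0.35, 0.11 and -0.17 with the offset. Chromosome 10 had a median of 0.29, and Ndufa12 and Ndufs7 were at -0.003 and -0.03 with the offset. Chromosome 17, with Ndufaf7, Ndufa7, Ndufa11, Ndufb10, Ndufv2 and Ndufv3, lay near 0 in every library, at a median fold change of 0.01. Ndufaf7 kept its fold change there, at 0.37 (SE 0.13, adjusted p = 0.161), and was the only one of the 45 genes at an unadjusted p under 0.05, against 17.7% of all genes in that fit, while 0 of 45 had an adjusted p under 0.05, against 1.27%. The 14 genes taken in the same way within 1 Mb of Ndufaf7 had a median of -0.01.

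At other chromosomes single clones or a few clones stood apart. Chromosome 7 was at -0.45 in high 5 and between -0.05 and 0.07 in the other libraries, and its members Ndufa3 and Ndufc2 were lowest in high 5, with 33.9 and 60.3 CPM, against 58.2 to 147 and 100 to 201 CPM elsewhere. The third, Ndufab1, was at 27.0 CPM in high 5 and lowest in high 2, at 22.4 CPM. Chromosome 3 was at 0.44 in high 1, the highest library for its members Ndufc1 and Ndufb5. It was at -0.32 in high 2, where Ndufc1 was lowest, and at -0.36 in high 4, where Ndufb5 was lowest. Over all 45 genes, on any chromosome, high 1 was the highest library for 17 and high 5 the lowest for 17. X was at 0.44 in high 4 and 0.47 in low 3. Its member Ndufa1, whose level was 105, 53.9, 71.0, 106 and 45.3 CPM in high 1 to high 5, against 88.0, 55.2, 106, 66.9 and 67.2 CPM in low 1 to low 5, was high in both of those clones and in high 1. Ndufb11, its other member, was highest in low 3, at 166 CPM, and next in high 1, at 151 CPM, ahead of high 4, at 138 CPM. Chromosome 1 was at 0.21 in low 5, where Ndufs1 had its highest value, while Ndufa10 and Ndufb3 of the same chromosome were highest elsewhere. Chromosome 13 was at 0.23, 0.26 and 0.20 in high 4, high 5 and low 5. Of its 3 members Ndufs4 and Ndufaf2 were highest in low 5 and Ndufs6 in high 3. Subtracting the deviation of the chromosome made the SD over the 10 libraries smaller for 36 of the 45 genes (80.0%), against 68.6% of all tested genes on chromosomes 1 to 19 and X.

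In edgeR no gene passed the test among the mitochondrial partners and the other genes of the pathway. Of the 7 complex I mRNAs encoded in mitochondrial DNA, 5 were tested and 0 were called, also 0 at an unadjusted p under 0.05, with log2 fold changes of 0.06 to 0.72. mt-Nd1, at 7191, 3839.7, 3991, 4879 and 1936 CPM in high 1 to high 5, against 4165, 2988, 1803, 3829 and 4005 CPM in low 1 to low 5, was at 0.38 on the log2 scale, high over low, with an SE of 0.33 (adjusted p = 0.548). High 1 was the highest and low 3 the lowest of its libraries, with high 5 next to it. mt-Nd3 and mt-Nd4l were listed at 0 counts in every library, unlike the abundant mt-Nd1, so these 2 entries carry no level. Of 13 further complex I assembly factors 0 were called, with Tmem126a, a factor for the ND4 end of the membrane arm, alone at an unadjusted p under 0.05 (-0.47, SE 0.21, adjusted p = 0.208). Tmem126a had 38.5, 36.2, 34.2, 49.6 and 21.8 CPM in high 1 to high 5, against 51.5, 40.2, 46.2, 49.6 and 62.7 CPM in low 1 to low 5. The median of the 13 was -0.0037 on the log2 scale, beside 0.17 for the Ndufaf genes. Of 8 regulators of nuclear genes for respiration 7 were tested and 0 were called, also 0 at an unadjusted p under 0.05. Nrf1, Gabpa, Esrra, Yy1 and Creb1 lay between -0.08 and 0.16, and the coactivator Ppargc1a was at most 0.69 CPM. The subunits of complexes II, III, IV and V had 0 of 4, 0 of 9, 0 of 10 and 0 of 15 called by edgeR, and 1, 1, 2 and 0 at an unadjusted p under 0.05, with medians of 0.02, -0.08, -0.08 and -0.01. DESeq2 and limma-voom each called 1 complex IV gene, Cox4i1 on chromosome 8, and none of the other genes in this paragraph.

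Copies, that is, transcripts of other annotated genes with nearly the same sequence, limit a few of the values. By alignment of transcripts, 9 of the 45 genes have a copy of at least 95% identity over 200 or more bases, 10 copies in all, of which 8 are in the count table. The largest was BC002163 with 9.71% as many counts as Ndufs5, followed by the Ndufa12 copy named above and by Gm4459 with 3.08% of the counts of Ndufab1. How reads that fit both copies were counted is not stated. Gm49356, counted here as the copy of Ndufb9, is typed as a nonsense-mediated decay transcript and is not in the count table. Whether it lies at the place of Ndufb9 itself was not checked.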

How the data were processed

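RNA was measured in 10 populations of mouse embryonic fibroblasts, 5 of high and 5 of low heteroplasmy, grouped by their GEO titles. Per the labels' protocols, poly(A) RNA was captured and libraries were made with a directional kit. The submitters' processing notes list STAR 2.7.8a, DESeq2 1.36.0, R 4.2.1 and the build GRCm38 without saying what each was used for. No source used here gives the counting program, whether it used strand, or the annotation. The deposited count table holds whole read counts per gene for each library. A second table by the authors holds a normalized signal, in which each library's counts are divided by 1 size factor, as the ratio of both deposited tables showed. It served for this check only.

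Genes were named with GENCODE M21, which left 195 of 26401 IDs without a name. Counts were tested in edgeR 4.0.16 (R 4.3.3) with group as the only term, the default expression filter, TMM scaling and robust quasi-likelihood F-tests, two-sided, with Benjamini-Hochberg adjustment over 12964 genes and a threshold of 0.05. Fold changes are high over low, with SEs from the log2 fold change and the F statistic. CPM use TMM factors, and deviations use a prior count of 2. For a chromosome, the median deviation was taken over genes whose mean log2 CPM exceeded 3. The same limit held for the genes within 1 Mb of a member. The fit was repeated with RLE or upper-quartile scaling, with mtDNA genes left out of the scaling, without the filter, with at least 1 CPM required in 5 libraries, with blocks by replicate number and by the number in the sample code, with DESeq2 1.42.0, limma-voom 3.58.1, without each library, without low 2 and low 3 together, with an offset per chromosome, a threshold of 0.1 and, chosen after seeing the data, the subtraction of length classes. The code was tested on simulated data. Library depth was 17318372 to 28208576 counts, and a complex I gene had at least 77 counts in every library.

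The members and lists were chosen with earlier results of these data known. Full values are given for the 12 members with the smallest p, any without overlap between groups, those on chromosomes 6, 8 and 14, and any called by a tool, 12 in all after leaving out 1 gene that is not reported here by itself. Other members named with values for each clone were chosen after their values were seen.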

Additional observations from a re-analysis of the deposited data

Results flagged for a closer look

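In 6 of 90 groups of 5 libraries (45 genes in 2 groups), 1 library stood apart from its group, with a gap to the next value of more than 0.71 of the range of the group. Chance flags about 1 in 20 such groups, and all 6 were low libraries. Ndufa13 was at 429 CPM in low 1, against 291 to 296 CPM in the other low libraries. Ndufc1 was at 74.9 CPM in low 1, against 44.2 to 47.7 CPM in the others. Ndufs4 was at 97.7 CPM and Ndufaf2 at 54.3 CPM in low 5, against 69.2 to 72.5 CPM and 30.2 to 34.0 CPM in the others. Both lie on chromosome 13, whose deviation in low 5 was 0.20 and in the other low libraries between -0.19 and 0.07, with 0.23 and 0.26 in high 4 and high 5. Ndufb9 was at 198 CPM in low 3, against 160 to 169 CPM in the others. Ndufb5 was at 43.2 CPM in low 2, against 53.3 to 57.3 CPM in the others.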

How the results depend on the processing

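No complex I gene was called under any refit (of all genes, 0.414% to 11.4% were). The smallest adjusted p was 0.0504, for Ndufb7 with the block by code number in edgeR (log2 fold change -0.80). Of 252 recomputed fold changes of the 12 genes given in full, 244 kept their direction. The sign turned with the offset per chromosome for Ndufb7 (0.024), Ndufa13 (0.122), Ndufa12 (-0.0034), Ndufs7 (-0.033) and Ndufa4 (-0.172), and with the code number block for Ndufa12 (-0.013), Ndufs7 (-0.00047) and Ndufa4 (-0.045). In that block high 3 and high 4 shared the number 9 with no low clone, so they added nothing to the difference between the groups. The part of this in the shifts was not tested. None of 57 recomputed module differences moved by more than the SD between libraries, but 4 changed sign: ND2 to -0.04 without low 2 and low 3, and ND5 to 0.004 with upper-quartile scaling, 0.11 without the genes on chromosomes 6, 8 and 14, and 0.05 with the length classes subtracted. Without those chromosomes Q was at 0.02 and ND1 at -0.05. With the length classes subtracted N was at 0.13, ND2 at 0.13, ND4 at 0.25 and ND1 at -0.17. The difference over all 45 genes then was 0.15 in place of 0.06, above the SDs of both groups (0.10 high, 0.06 low). That of ND4 was also above both of its SDs (0.13 high, 0.06 low). So was that of the assembly factors, at 0.18 (SDs 0.16 high, 0.10 low). The counts over all genes moved more: 258 higher and 372 lower became 685 and 790 with DESeq2, 14 and 42 without low 2 and low 3, 85 and 79 with the chromosome offset, 572 and 704 at a threshold of 0.1, and 82 to 339 and 150 to 492 with 1 library left out.

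The replicate numbers were not taken as pairs: same-numbered libraries correlated at 0.46, -0.05, 0.03, 0.07 and 0.16, and for 2 of the 5 numbers the libraries correlated best with their own number. With a replicate block 0 of 45 genes were called, against 4.45% of all genes, 4 had an unadjusted p under 0.05, against 23.7%, and the median fold change was 0.09. With 5 clones a group, SEs ran from 0.13 to 0.39, and small differences in single genes were not detectable.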
